A study of Mus musculus with 20 samples.

Results

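The genes described here are 9 genes of fatty acid use and storage that peroxisome proliferator-activated receptors (PPARs) are known to switch on in muscle: Pdk4, Ucp2, Ucp3, Angptl4, Cpt1a, Acot1, Acot2, Plin2 and Plin5. They were taken by gene symbol from the deposited counts, which listed all 9 of them among 15956 genes. Counts came from the left ventricle of 20 mice, 5 in each of 4 diet groups, which received normal protein (NP), low protein (LP), a diet high in fat with normal protein (HF) or a diet both high in fat and low in protein (HF+LP). All mice were aging animals, 18 months old per the labels, although the study's methods state a younger age at tissue collection, and those methods describe males that were killed fed. The LP and HF+LP diets held less casein, with carbohydrate in its place, and the HF and HF+LP diets held more fat. The mouse strain was not given in the sources used here, no transgene or drug was involved, and the NP mice were the controls for both diet changes. Each library is labelled with 1 animal, and that of LP 5 alone is also labelled as sample 2, of unstated meaning. A count in such 3′ libraries is a number of reads from the 3′ end of a gene's transcripts in bulk tissue, so that fewer cells of a type and less RNA per cell cannot be told apart. The levels below are normalized counts, which are read counts divided by the TMM-scaled library size and multiplied by the mean of that size over the 20 libraries. Values of a group are given in the order of the animal numbers, which were 3, 4, 5, 6 and 8 in NP, 2, 5, 13, 15 and 20 in LP, and 1 to 5 in HF and in HF+LP.

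PPARs are nuclear receptors that bind fatty acids, pair with a retinoid X receptor and sit on DNA at PPAR response elements. In the heart, PPARα and PPARδ are best known for raising the genes of fatty acid uptake and oxidation when fat supply is high, as in fasting or fat feeding. The 9 genes cover several arms of that program. Pdk4 turns off pyruvate dehydrogenase and so holds back glucose oxidation, Cpt1a carries long-chain acyl groups to the mitochondria, Acot1 and Acot2 split acyl-CoA into free fatty acid and CoA in the cytosol and in mitochondria, Ucp2 and Ucp3 are carriers of the mitochondrial inner membrane, Angptl4 is a secreted inhibitor of lipoprotein lipase, and Plin2 and Plin5 coat lipid droplets.

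A PPAR response element is commonly drawn as 2 copies of the half-site AGGTCA that point the same way with 1 base between them. This pattern was searched on both strands, with at most 2 mismatches over the 12 half-site bases, in RefSeq windows (GRCm38.p6) that run from 250 bases before to 50 bases after a transcription start. Windows were at hand for 8 of the 9 genes, Plin5 with 2 start sites, and none for Angptl4. The pattern was found in 2 of the 9 windows, those of Ucp3 and Plin2, against 3.86% of all 32851 windows of this length. In Ucp3 it starts 51 bases before the start site, and in Plin2 it lies on the opposite strand 225 bases before the start site as aggtcaggggtcc. With 1 mismatch allowed no window of the 9 genes held it (0.554% of all windows), and with 3 mismatches 5 of 9 did (24.6% of all windows). A match is a string of letters and no evidence of binding, and its absence from these short windows is no evidence against binding elsewhere. The sequences before the start sites of the 4 genes on which the diet results below turn most are shown from 5′ to 3′ on the gene's strand, each ending at the base before the gene starts in the GENCODE annotation of GRCm38, with capitals for the half-site bases of a match.
Pdk4 (chr6:5496310-5496528, minus strand): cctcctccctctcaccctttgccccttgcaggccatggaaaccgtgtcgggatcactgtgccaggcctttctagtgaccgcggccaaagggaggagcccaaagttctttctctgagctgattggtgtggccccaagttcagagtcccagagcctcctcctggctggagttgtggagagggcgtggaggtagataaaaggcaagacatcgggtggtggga
Acot1 (chr12:84009252-84009489, plus strand): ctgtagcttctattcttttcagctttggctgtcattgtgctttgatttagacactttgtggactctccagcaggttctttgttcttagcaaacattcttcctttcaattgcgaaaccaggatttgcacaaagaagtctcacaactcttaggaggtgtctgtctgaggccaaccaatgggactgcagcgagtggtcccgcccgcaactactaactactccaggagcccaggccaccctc
Plin5 (chr17:56117597-56117798, minus strand): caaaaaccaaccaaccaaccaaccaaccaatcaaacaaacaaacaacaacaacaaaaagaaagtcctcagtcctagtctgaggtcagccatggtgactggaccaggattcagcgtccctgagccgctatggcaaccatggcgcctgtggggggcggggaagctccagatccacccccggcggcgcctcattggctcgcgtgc
Ucp3 (chr7:100472741-100472989, plus strand): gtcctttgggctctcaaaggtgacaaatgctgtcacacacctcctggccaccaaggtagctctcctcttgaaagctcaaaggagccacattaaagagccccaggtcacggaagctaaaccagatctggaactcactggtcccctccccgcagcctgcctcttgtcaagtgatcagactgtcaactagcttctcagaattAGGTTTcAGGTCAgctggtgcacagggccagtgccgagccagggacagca

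The libraries held 12559607 to 23331907 counts, and the summed level of 8 cardiomyocyte genes was 595570.0 to 955940.0 normalized counts in every library. The libraries differed widely in markers of other tissue. The summed level of 4 genes of atrial myocytes (Nppa, which ventricle under load also expresses, Myl7, Myl4 and Sln) ranged from 2423 to 60406 in NP, from 2198 to 245760.0 in LP, from 1876 to 204490.0 in HF and from 970.3 to 87124 in HF+LP, and 6 libraries (NP 5, LP 13, LP 15, HF 1, HF 3 and HF+LP 3) were over 50000. The summed level of 8 white adipocyte genes reached 9819 in LP 13, 6657 in LP 20 and 4206 in HF 3 and was at most 3802 elsewhere. One of them, Plin4, stood at 1432 to 2776 in every library. Without Plin4 the sum was 8112 in LP 13, 4449 in LP 20, 2311 in HF 3, 1620 in NP 6 and 819 in NP 8. It was 21.1 (HF 4) to 319 (HF+LP 3) elsewhere. Correlations with the white adipocyte level below use the sum without Plin4. Ucp1, the brown fat uncoupling protein, stood at 6037 in LP 13, at 952 in LP 20, at 568 in HF 3 and at 188 in HF+LP 3, and at most at 71.8 in the other 16 libraries. LP 13 also had the lowest median correlation with its own group (0.908 against 0.944 to 0.979). Correlations with the atrial or adipocyte level are therefore given beside the genes below.

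None of the 9 genes passed the call used here, an edgeR quasi-likelihood adjusted p under 0.01 with a mean normalized count over 50, in any of 7 comparisons, although all 9 were well above the count minimum. The largest estimate was that of Pdk4 for HF compared with NP, and Acot1 came closest to a call. For HF compared with NP, 0.364% of the 10159 genes over the minimum were called, for HF+LP compared with LP 0.138%, and for fat over both protein levels, the mean of these differences, 1.38%. The other 4 comparisons, which were HF+LP compared with HF, LP compared with NP, protein over both fat levels, and the interaction of fat and protein, had 0% called by edgeR, with 16, 4, 1 and 1 genes called by DESeq2. DESeq2 called 1 of the 9 genes, Acot1 for fat over both protein levels, and none in the other 6 comparisons.

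At an unadjusted edgeR p under 0.05, without correction for the 13991 genes tested, 1 of 9 genes passed for HF compared with NP, where 13.3% of all genes did. For HF+LP compared with LP 3 of 9 passed and all were higher, where 15.7% of all genes passed and 7.71% were higher. For fat over both protein levels 4 of 9 passed and all were higher, where 21.6% of all genes passed and 9.8% were higher. All 9 estimates for fat lay above 0, as did 50.7% of all genes, with a median of 0.15 on the log2 scale against 0.00 over all genes. Those of Ucp2, Ucp3, Cpt1a, Acot2 and Plin2 were at most 0.15, with unadjusted edgeR p of 0.482 or more. The counts for protein were 2 of 9 for HF+LP compared with HF (4.36% of all genes), 1 of 9 for LP compared with NP (5.93%), 1 of 9 for protein over both fat levels (4.63%) and 3 of 9 for the interaction (6.1%). All HF+LP mice stood above all LP mice for Acot1 (1.1% of all genes), and all HF+LP mice stood above all HF mice for Ucp3 (0.532%). None of the 9 genes had the first group wholly higher for HF compared with NP (2.39%) or LP compared with NP (0.266%).

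**Figure D1:**
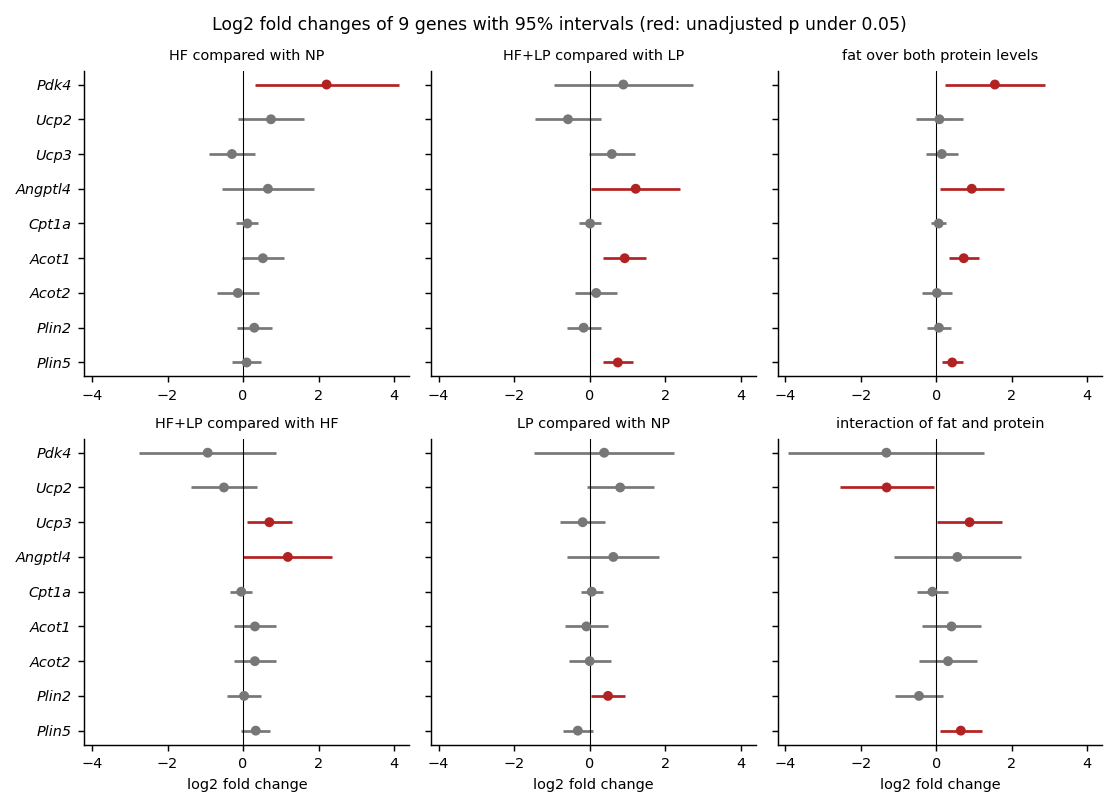
Log2 fold changes of the 9 genes (x axis) in 6 of the 7 comparisons, with 95% intervals from the edgeR model of all 20 libraries; red marks an unadjusted p under 0.05. Intervals of Pdk4 and Angptl4 are the widest, that of Cpt1a stays close to 0 in every panel, and Acot1 and Plin5 stand above 0 in the panels for HF+LP compared with LP and for fat.

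Pdk4, pyruvate dehydrogenase kinase 4 (chr6:5483351-5496309, minus strand in GRCm38), had the largest estimate for fat and the widest spread between mice of the same diet. Its normalized counts were 41.8, 473, 65.6, 68.0 and 509 in NP and 112, 84.3, 2554, 306 and 2274 in HF. HF 3 and HF 5 stood far above every other mouse of the study, while HF 1, HF 2 and HF 4 lay within the range of NP. In LP the counts were 257, 103, 562, 63.0 and 506, and in HF+LP they were 910.4, 279.9, 804, 624 and 176, so that these groups overlapped as well. HF was 4.63-fold higher than NP, a log2 fold change of 2.21 ± 0.91 (SE) with a 95% interval from 0.31 to 4.12 (unadjusted p = 0.0251, edgeR adjusted p = 0.283). HF+LP compared with LP gave a log2 fold change of 0.89 ± 0.88 (SE) (unadjusted p = 0.324). Fat over both protein levels gave a log2 fold change of 1.55 ± 0.63 (SE) (unadjusted p = 0.0234, edgeR adjusted p = 0.163). Without HF 3 that value was 1.25 (unadjusted p = 0.0621) and without HF 5 it was 1.31 (unadjusted p = 0.0533), and with any other mouse left out the p stayed under 0.05. HF 3 was 1 of the 6 libraries rich in atrial markers and the only one of HF with white adipocyte genes over the level of NP, and HF 5 was neither; without the 6 libraries the value for fat was 1.25 (unadjusted p = 0.0973), and the part of other tissue in the level of HF 3 was not tested. With the white adipocyte level (without Plin4) Pdk4 had a Pearson r of 0.18 over the 20 mice and 0.52 after group means were subtracted. For HF compared with NP alone, the p was over 0.05 without NP 3, NP 5, NP 6, HF 3 or HF 5, with log2 values of at most 1.98.

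The difference between mice of a group can be set against that of other genes. On the log2 CPM scale the SD of Pdk4 between mice of the same group was 1.68, and 27 of 10159 genes had a larger one, the median gene being at 0.25. Angptl4 (1.04) varied more than 98.9% of these genes and Ucp2 (0.77) more than 97.2%. Ucp3, Acot1 and Acot2 lay between 0.47 and 0.48, Plin2 and Plin5 at 0.35 and 0.31, and Cpt1a at 0.22, below the median gene. A group mean of Pdk4 thus rested on values that differed several-fold, since the highest Pdk4 count of a group was 12.2 times the lowest in NP, 8.92 times in LP, 30.3 times in HF and 5.16 times in HF+LP.

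**Figure D2:**
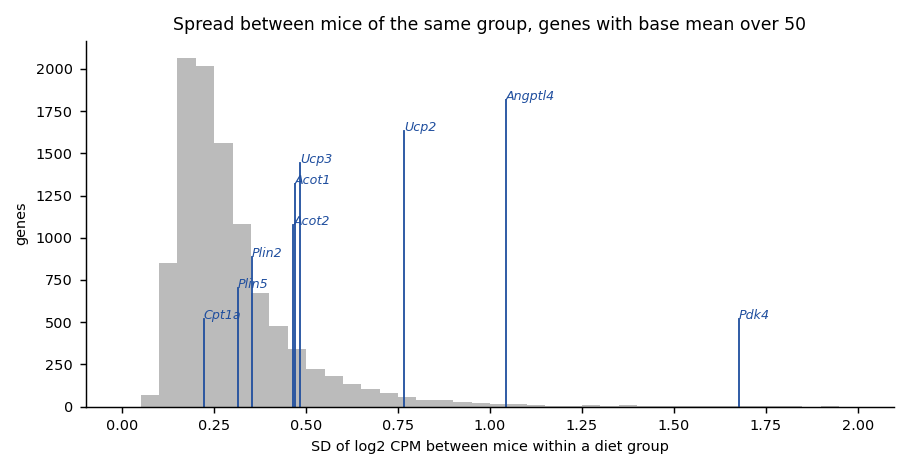
Number of genes (y axis) by the SD of log2 CPM between mice of the same diet group (x axis, bins of 0.05), for genes with a base mean over 50; 22 genes beyond 2 are not drawn and blue lines mark the 9 genes. Cpt1a lies in the bulk of the genes at 0.22 and Pdk4 in the far tail at 1.68; the height of a blue line has no meaning.

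Acot1, the cytosolic acyl-CoA thioesterase 1 (chr12:84009490-84018371, plus strand), had the smallest p of the 9 genes for fat over both protein levels. Its normalized counts were 237, 376, 129.8, 329.5 and 265 in NP and 291, 289.9, 564, 367 and 412 in HF, and these groups overlapped. They were 353, 283, 189.9, 170.2 and 267 in LP and 394, 374, 356, 553 and 724 in HF+LP, where the lowest HF+LP mouse stood just above the highest LP mouse. The mean ± SD of the 5 mice was 267 ± 94.2 for NP, 253 ± 73.9 for LP, 385 ± 113 for HF and 480.1 ± 157 for HF+LP. Over both protein levels the fat diets were 1.66-fold higher, a log2 fold change of 0.73 ± 0.19 (SE) with a 95% interval from 0.33 to 1.12 (unadjusted p = 0.00107, edgeR adjusted p = 0.0322). That adjusted p is over 0.01 and under 0.05, while DESeq2 gave 0.74 with an adjusted p of 0.00533, which is a call. Leaving out each mouse in turn kept the log2 value between 0.63 and 0.80, with edgeR adjusted p from 0.023 to 0.063. HF+LP compared with LP gave a log2 fold change of 0.93 ± 0.27 (SE) (unadjusted p = 0.00257, edgeR adjusted p = 0.124), and HF compared with NP gave a log2 fold change of 0.53 ± 0.27 (SE) (unadjusted p = 0.0649, edgeR adjusted p = 0.427). The difference between these, the interaction, was 0.40 with an interval from −0.39 to 1.19. Over the 20 mice Acot1 had a Pearson r of −0.42 with the atrial and −0.19 with the adipocyte level. After group means were subtracted these were −0.34 and 0.28. Without the 6 libraries rich in atrial markers, of which NP 5, LP 15 and LP 13 were the 3 lowest of all 20 for Acot1, the value for fat was 0.50 (unadjusted p = 0.00766, edgeR adjusted p = 0.127), and with the atrial level as a covariate it was 0.68 (edgeR adjusted p = 0.0492).

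Acot2, the mitochondrial thioesterase that neighbours Acot1 on chromosome 12 (chr12:83987861-83993873, plus strand), showed no such difference. Its counts ran from 2030.5 to 4874 in NP, 1625 to 3890.2 in LP, 2169 to 3669 in HF and 2663 to 5224 in HF+LP, and all groups overlapped. The estimate for fat was 0.02 with an interval from −0.37 to 0.41, so that changes of more than 0.41 on the log2 scale lay outside it. Acot1 and Acot2 are close copies, and 40 of the 852 distinct windows of 75 bases in the last 500 bases of Acot1 transcripts (4.69%) also occur in an Acot2 transcript, so a small part of the reads could have been assigned to either. No such window was shared with another gene for the other 8 genes.

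Plin5, perilipin 5, which ties lipid droplets to mitochondria in oxidative muscle (chr17:56111601-56117596, minus strand), was the other gene with an unadjusted p under 0.01 for fat. Its counts were 2054, 2032, 1064, 1388 and 1284 in LP and 2198, 2492, 1981, 3005 and 3440.0 in HF+LP, where 4 of the 5 HF+LP mice stood above every LP mouse. In NP they were 1978, 2197, 1566, 2257 and 1716 and in HF 1838, 2637, 1766, 2286 and 1862, and those groups overlapped widely. HF+LP compared with LP gave a log2 fold change of 0.75 ± 0.19 (SE) with an interval from 0.35 to 1.14 (unadjusted p = 0.00076, edgeR adjusted p = 0.0836). HF compared with NP gave 0.10 with an interval from −0.29 to 0.49. The interaction, which tests whether fat acted differently at low and normal protein, was 0.65 ± 0.27 (SE, unadjusted p = 0.0235, edgeR adjusted p = 0.683), so this difference did not pass the correction. Without the 6 atrial-rich libraries the interaction was 0.46 (unadjusted p = 0.114), and with the atrial level as a covariate it was 0.53 (unadjusted p = 0.0219). Fat over both protein levels gave a log2 fold change of 0.42 ± 0.13 (SE) (unadjusted p = 0.00472, edgeR adjusted p = 0.0716). The 3 lowest LP mice for Plin5 were LP 13, LP 20 and LP 15, which also held the most atrial markers of that group; without the 6 atrial-rich libraries the value for HF+LP compared with LP was 0.62 (unadjusted p = 0.00695, edgeR adjusted p = 0.211).

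Plin2, perilipin 2, the droplet coat found in most tissues (chr4:86648386-86670060, minus strand), gave its only unadjusted p under 0.05 for LP compared with NP, and that value was smaller without LP 13. Its counts were 571, 701, 548, 707 and 513 in NP and 684, 632, 1595, 553 and 788 in LP, where LP 13 stood at more than 2 times the next mouse. The estimate was 0.49 ± 0.22 (SE, unadjusted p = 0.0374, edgeR adjusted p = 0.664), and without LP 13 it was 0.12 (unadjusted p = 0.378). LP 13 is the library with the highest adipocyte markers, and the gene most like Plin2 over the 20 mice was Cidea, a droplet protein typical of brown fat, at a Pearson r of 0.93. With the white adipocyte level Plin2 had an r of 0.26 over the 20 mice and 0.39 after group means were subtracted. In HF the counts ran from 615 to 953 and in HF+LP from 612 to 875, so that both fat groups lay within the range of the LP mice. The estimate for fat was 0.07, and without LP 13 it was 0.24 (unadjusted p = 0.0185, edgeR adjusted p = 0.148).

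Angptl4, the secreted inhibitor of lipoprotein lipase (chr17:33773750-33781830, minus strand), had its highest group mean in HF+LP. Its counts were 74.8, 241, 17.0, 49.9 and 48.6 in NP, 39.9, 91.3, 275, 47.9 and 195 in LP, 80.1, 166, 171, 136 and 125 in HF and 88.5, 199.8, 349.9, 454 and 456 in HF+LP. HF+LP 3, HF+LP 4 and HF+LP 5 exceeded all 15 mice of the other groups, HF+LP 2 lay above every HF mouse, and HF+LP 1 was near the lowest HF mouse. HF+LP compared with LP gave a log2 fold change of 1.22 ± 0.57 (SE) (unadjusted p = 0.0432, edgeR adjusted p = 0.299) and HF+LP compared with HF gave a log2 fold change of 1.19 ± 0.57 (SE) (unadjusted p = 0.0494, edgeR adjusted p = 0.999). Fat over both protein levels gave 0.94 (unadjusted p = 0.0315, edgeR adjusted p = 0.19) and protein over both fat levels gave 0.91 (unadjusted p = 0.0371, edgeR adjusted p = 0.872). In NP, mouse NP 4 stood at 241, more than 3 times the next mouse, and without it the estimate for fat was 1.36 with an edgeR adjusted p of 0.0453. The unadjusted p of the 4 comparisons passed 0.05 in 14, 7, 11 and 9 of the 20 fits that each left out a mouse, in the same order. Over the 20 mice Angptl4 had a Pearson r of −0.05 with the atrial and 0.03 with the adipocyte level, and of 0.13 and 0.46 after group means were subtracted. Without the 6 atrial-rich libraries the unadjusted p of the 4 comparisons was 0.0439, 0.114, 0.0529 and 0.205, with log2 values of 1.41, 1.06, 0.94 and 0.59.

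Ucp3, the uncoupling protein 3 of muscle mitochondria (chr7:100472990-100486432, plus strand), was higher in HF+LP than in HF without overlap. Its counts were 271, 422, 402, 471 and 337 in HF and 521, 610.0, 606, 596 and 753 in HF+LP, and those groups were tighter than NP and LP. In NP they were 418, 928, 295, 309 and 385 and in LP 234, 313, 519, 320.2 and 657. NP 4 was the highest mouse of the study, and it was also the highest of NP for Angptl4, Acot1, Acot2 and Cpt1a. HF+LP compared with HF gave a log2 fold change of 0.70 ± 0.29 (SE) with an interval from 0.09 to 1.30 (unadjusted p = 0.0261, edgeR adjusted p = 0.852). The p was 0.05 or more when HF 1, HF 5 or HF+LP 5 was left out, the largest being 0.0665, and under 0.05 in the other 17 fits. Without the 6 atrial-rich libraries the value was 0.59 (unadjusted p = 0.127), and with the atrial level as a covariate it was 0.71 (unadjusted p = 0.0281). HF+LP compared with LP gave a log2 fold change of 0.59 ± 0.29 (SE) (unadjusted p = 0.0557, edgeR adjusted p = 0.326), while HF compared with NP gave −0.29 with an interval from −0.90 to 0.31. Without NP 4 the value for HF compared with NP was 0.11. The interaction was 0.88 ± 0.41 (SE, unadjusted p = 0.0438, edgeR adjusted p = 0.689), without NP 4 it was 0.47 (unadjusted p = 0.158), and without the 6 atrial-rich libraries it was 0.92 (unadjusted p = 0.0946).

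Ucp2, the more widely expressed uncoupling protein 2, which lies beside Ucp3 on chromosome 7 (chr7:100493337-100502020, plus strand), varied with the atrial marker level of the library. Its counts were 188, 214, 303, 185 and 276 in NP, 181, 99.5, 767, 484 and 496 in LP, 618, 320.2, 589, 201 and 219 in HF and 219, 267, 456, 218 and 207 in HF+LP. The highest mouse of every group (NP 5, LP 13, HF 1 and HF+LP 3) was the mouse of that group with the highest atrial markers. Over the 20 mice the Pearson r of log2 levels was 0.79, and 0.84 after group means were subtracted, whereas that of Plin5 was −0.65 both ways. With the white adipocyte level the r of Ucp2 was 0.48 and 0.62, and that of Plin5 −0.65 and −0.47. These values describe 20 libraries, in each of which the gene and the markers share depth and dissection. The interaction of Ucp2 was −1.31 ± 0.60 (SE, unadjusted p = 0.0396, edgeR adjusted p = 0.689), and it was −0.39 without the 6 atrial-rich libraries (unadjusted p = 0.465) and −0.55 with the atrial level as a covariate (unadjusted p = 0.142). With that covariate Ucp2 had 0.40 for fat (unadjusted p = 0.0372, edgeR adjusted p = 0.23). Ucp2 overlaps Dnajb13 on the other strand and Ucp3 overlaps Gm10603 on the other strand, and whether the counting used strand was not given in the sources used here.

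**Figure D3:**
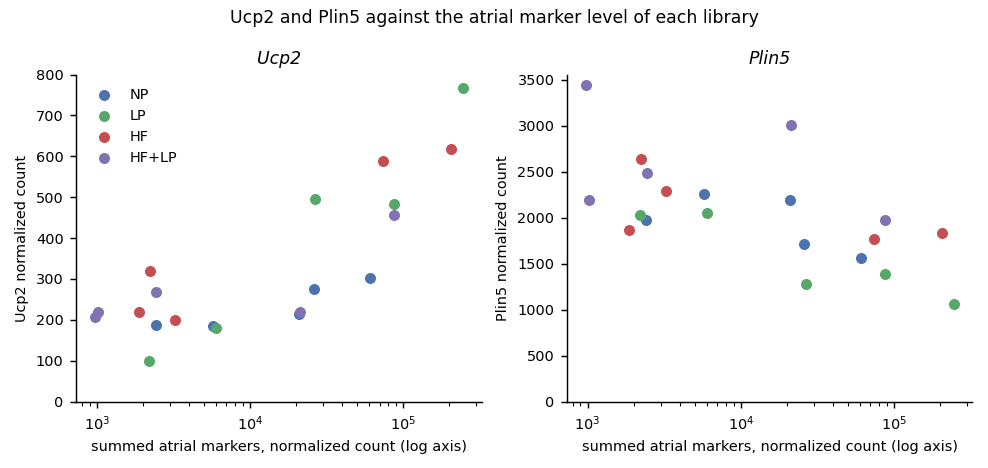
Normalized counts of Ucp2 and Plin5 (y axes, from 0) against the summed normalized count of 4 atrial markers (x axis, log) in each of the 20 libraries, coloured by diet. The libraries with the most atrial markers were high in Ucp2 and low in Plin5, with LP 13 at the right end at 767 for Ucp2 and 1064 for Plin5.

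Cpt1a, the isoform of carnitine palmitoyltransferase 1 that prevails in liver (chr19:3322334-3385733, plus strand), was the steadiest of the 9 genes. Its counts ran from 235 to 299.6 in NP, 188 to 383 in LP, 278 to 311 in HF and 258 to 328 in HF+LP. The group means were 269 ± 25.2, 278 ± 75.5, 291 ± 12.4 and 282 ± 28.6 (SD, n = 5). The estimate for fat was 0.06 with an interval from −0.14 to 0.27, so that changes of more than 0.27 on the log2 scale lay outside it. LP 2 and LP 13 were its lowest and highest mice. Over the 20 mice Cpt1a had a Pearson r of 0.33 with the atrial and 0.27 with the adipocyte level. After group means were subtracted these were 0.39 and 0.47. Cpt1b, the isoform of heart and skeletal muscle, was on the list of other PPAR targets but was not analysed here.

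**Figure D4:**
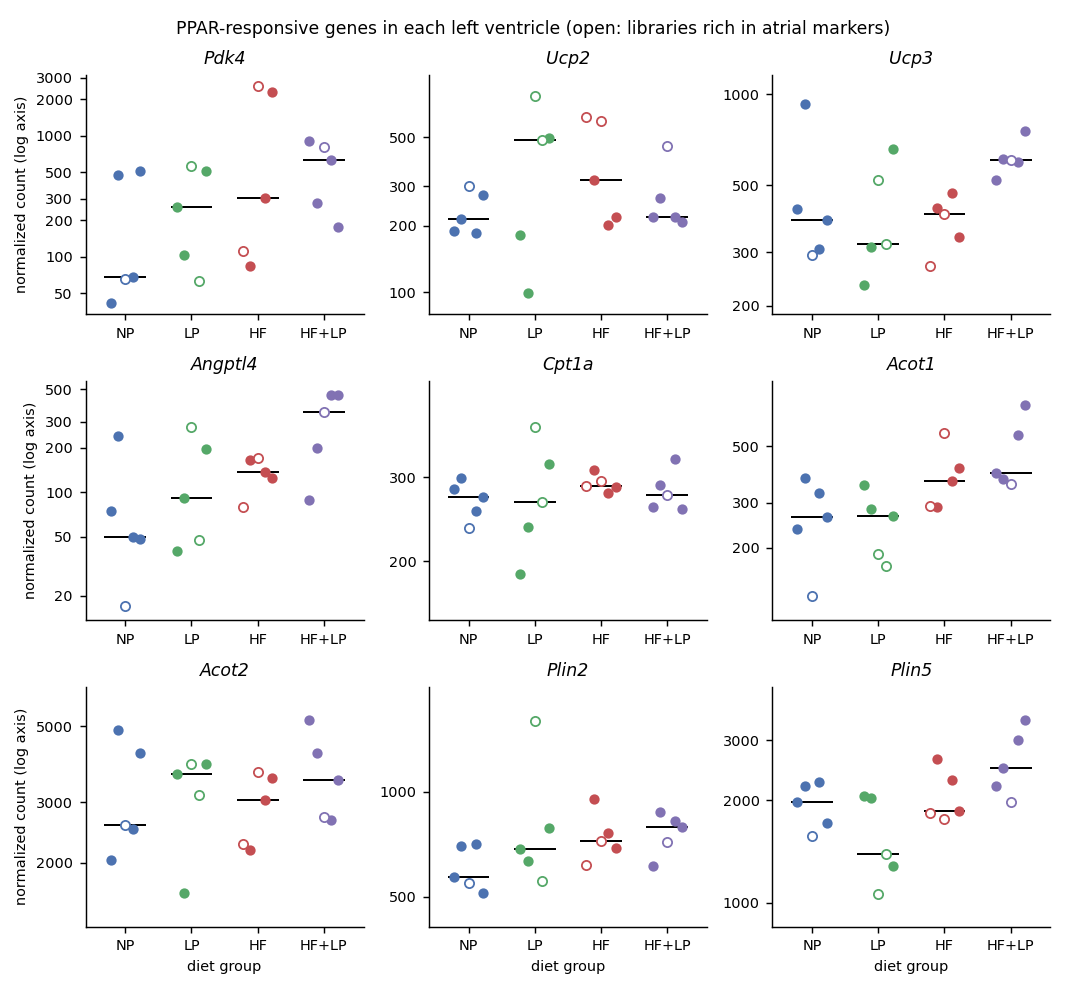
Normalized counts (y axes, log scale, different in each panel) of the 9 genes in every mouse by diet group, with a black bar at the group median; open circles are the 6 libraries with summed atrial markers over 50000. Only Acot1 between LP and HF+LP and Ucp3 between HF and HF+LP separate without overlap among the pairs of groups compared, and Pdk4 spans 41.8 to 2554.

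None of the 9 genes passed the correction for a low-protein diet. At normal fat, 8 of 9 had an unadjusted p over 0.05, and the exception was Plin2, with its value at LP 13. At high fat, Ucp3 and Angptl4 were higher in HF+LP than in HF at an unadjusted p under 0.05. Without the 6 atrial-rich libraries neither had one by edgeR, and Acot1 alone did, being higher in HF+LP. The estimate of Pdk4 was −0.94 with an interval from −2.76 to 0.88, too wide to tell a fall from a rise. It was −0.32 without HF 3 and −1.23 without HF 1. No edgeR adjusted p for protein was under 0.664 for any of the 9 genes. For the interaction, Ucp3 and Plin5 lay above 0 and Ucp2 below 0 at an unadjusted p under 0.05, and the smallest edgeR adjusted p of the 9 genes was 0.683. Without the 6 atrial-rich libraries 0 of the 9 had an unadjusted p under 0.05 by edgeR for the interaction. With a factor for the number that the library names carry, of unstated meaning, Plin5 alone of the 3 had one for the interaction (0.0375, against 0.0516 for Ucp3 and 0.0729 for Ucp2), while the unadjusted p was 0.0782 for Pdk4 for fat and 0.0522 for Angptl4 for HF+LP compared with HF.

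The 9 genes did not all vary together from mouse to mouse. On the log2 CPM scale, the pair most alike over the 20 mice was Ucp3 and Angptl4, with a Pearson r of 0.79, and 0.85 after group means were subtracted. Acot1 and Plin5 followed at 0.71 and 0.56. Pdk4 was closest to Acot2, at 0.62 and 0.68, and stood at −0.08 and −0.42 with Plin5. Ucp2 and Plin5 were opposed, at −0.60 and −0.78. Acot1 and Acot2 were at 0.24. All of these are descriptions over libraries that share depth, dissection and diet.

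Among other genes with a base mean over 50, those most like Pdk4 over the 20 mice were Bpnt1 (0.92), Acyp1 (0.90) and Clpx (0.90), by Pearson r of log2 CPM. After group means were subtracted, they were Ssbp1 (0.96), Mospd2 (0.95) and Eif4g3 (0.95). For Ucp3 the genes were St6galnac2 (0.71), Dcaf7 (0.67) and Snrpd1 (0.67), and Cd53 (0.84), Rnf145 (0.82) and Hnrnpul1 (0.81) with group means subtracted. For Angptl4 they were Eef1b2 (0.81), Rps12 (0.79) and Dnajb1 (0.78), and Fam193b (0.84), Ppp2r1b (0.81) and Ccnl2 (0.80) with group means subtracted. For Acot1 they were Lin7c (0.79), Rabggtb (0.79) and Mlycd (0.77), and Sgsm3 (0.75), Casc3 (0.72) and Akap1 (0.70) with group means subtracted. Mlycd, malonyl-CoA decarboxylase, which removes the inhibitor of fatty acid entry into mitochondria, was thus among the 3 genes nearest to Acot1, and it was also the second nearest to Plin5 at 0.92.

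Some other genes known as PPAR targets were called by edgeR for fat. Of 30 such genes 26 were listed and 24 had a base mean over 50, and 4 of the 24 were called higher by edgeR for fat over both protein levels and none lower, with a median log2 value of 0.18, where 1.38% of all genes were called. DESeq2 called 6 of the 24. At an unadjusted p under 0.05, 10 of the 24 were higher and 0 lower, where 9.8% of all genes were higher. Decr1, needed for the oxidation of unsaturated fatty acids, stood at 5124 ± 528 for NP, 4209 ± 538 for LP, 5685 ± 406 for HF and 6987 ± 1147 for HF+LP (mean ± SD of 5 mice). Its log2 value for fat was 0.44 ± 0.08 (SE, edgeR adjusted p = 0.0045). Cd36, the fatty acid transporter of the cell surface, had 0.40 ± 0.07 (edgeR adjusted p = 0.0045). Pex11a, a factor of peroxisome division, had 0.55 ± 0.11 (edgeR adjusted p = 0.00552), and Slc25a20, the carnitine-acylcarnitine carrier, had 0.36 ± 0.08 (edgeR adjusted p = 0.00879). Of the 20 fits that each left out a mouse, Decr1 kept its call in 16, Cd36 in 14, Pex11a in 10 and Slc25a20 in 4. The number called was 0 to 2 without NP 4, NP 5, NP 8, LP 15, LP 20, HF 4, HF 5, HF+LP 4 or HF+LP 5, and 3 to 5 without any other mouse. Without the 6 atrial-rich libraries edgeR called 0 and 11 were higher at an unadjusted p under 0.05, and with a factor for the number in the library names it called 0 and 10 were higher and 1 lower.

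The median estimate of these 24 genes for fat was larger at low protein than at normal protein, and the test of the difference gave no call. For HF+LP compared with LP 2 of the 24 were called higher (Decr1 and Pex11a) and 15 were higher at an unadjusted p under 0.05 (0.138% and 7.71% of all genes), with a median of 0.34, while DESeq2 called 8. For HF compared with NP 0 were called by edgeR or DESeq2 and 1 was higher at an unadjusted p under 0.05, with a median of 0.04, where 13.3% of all genes passed that p. For LP compared with NP 7 of the 24 passed an unadjusted p under 0.05 and all were lower (5.93% of all genes passed), with a median of −0.23, and 2 of 24 did without LP 13. Both HF+LP compared with LP and LP compared with NP use the LP mice. The interaction had 11 of 24 at an unadjusted p under 0.05, all positive (6.1% of all genes passed), with a median of 0.37, but 0 were called by edgeR or DESeq2. Beside these, the 8 cardiomyocyte markers had a median of 0.33 for the interaction, 2 being higher at an unadjusted p under 0.05, and of −0.21 for LP compared with NP, and 5 of the 6 white adipocyte markers over the minimum were lower for the interaction, with a median of −4.40; their part in the values of the 24 genes was not tested. Pex11a, for example, had an interaction of 0.69 ± 0.21 (SE) with an edgeR adjusted p of 0.614. LP 13, with its high atrial and adipocyte markers, had the lowest summed level of the list in LP, and leaving it out left 0 genes called by edgeR for HF+LP compared with LP and 13 at an unadjusted p under 0.05, while the number called was 0 in 14 of the 20 fits that each left out a mouse. Among the 9 genes Ucp3, Angptl4, Acot1, Acot2 and Plin5 had larger estimates for HF+LP compared with LP than for HF compared with NP, and Pdk4, Ucp2, Cpt1a and Plin2 had smaller ones.

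**Figure D5:**
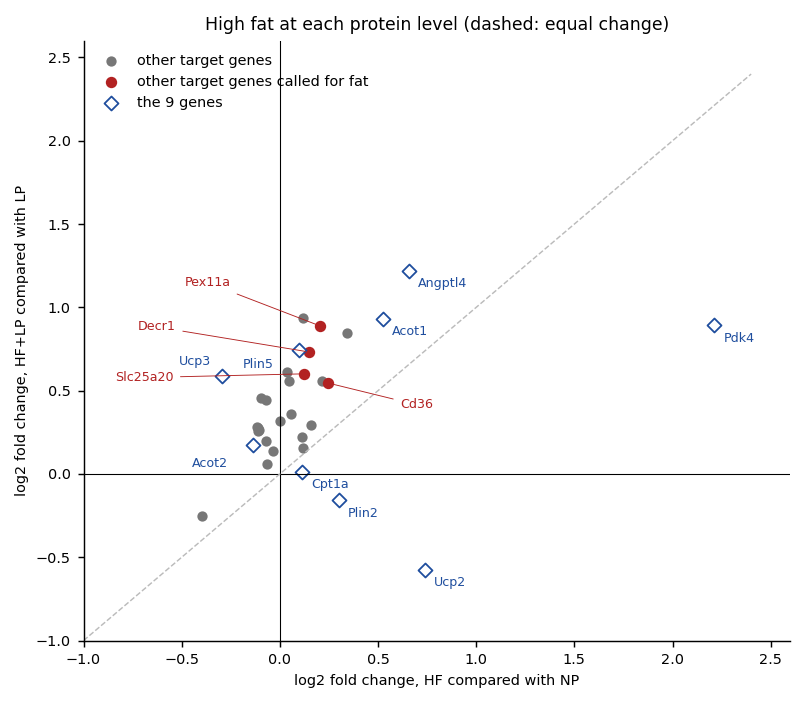
Log2 fold change for HF compared with NP (x axis) against HF+LP compared with LP (y axis), which share no mice, for the 9 genes (blue diamonds) and 24 other PPAR target genes (dots; red where called for fat over both protein levels). Pdk4 lies farthest right at 2.21, and the 24 dots lie above the dashed line of equal change.

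The receptors and their partners, and the genes of pyruvate dehydrogenase on which Pdk4 acts, gave no call for fat. Of 13 PPARs, retinoid X receptors and cofactors 0 were called by edgeR, 1 was higher and 2 lower at an unadjusted p under 0.05, a share near the 21.6% of all genes that passed. The coactivator Lpin1 had the smallest p, at −0.21 ± 0.08 (SE, edgeR adjusted p = 0.141), followed by Ncoa2 at −0.18 ± 0.08 and Rxrg at 0.26 ± 0.12. Ppara, Ppard and Pparg had log2 values of 0.25, −0.14 and 0.04 and unadjusted p values of 0.515, 0.209 and 0.939. Of 11 genes of the pyruvate dehydrogenase complex, its other kinases and phosphatases and the pyruvate carrier, 0 passed an unadjusted p under 0.05 for fat, and the smallest p values were those of Pdp1 (−0.19), Pdp2 (−0.23) and Pdk1 (0.15). For HF compared with NP Pdp2, a phosphatase that turns the complex back on, had −0.62 ± 0.18 (SE, unadjusted p = 0.00221, edgeR adjusted p = 0.0849), and its interaction was 0.79 ± 0.25 (SE, edgeR adjusted p = 0.614). None of the 11 came near the estimate of Pdk4 for fat, which itself did not pass the correction.

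Of the other acyl-CoA thioesterases 9 of 13 were listed and 7 had a base mean over 50, of which 1 was lower and none higher at an unadjusted p under 0.05 for fat. Acot11 had −0.49 ± 0.17 (edgeR adjusted p = 0.103), with its highest counts in LP 13 (317) and LP 20 (180). Acot3 and Acot4, peroxisomal neighbours of Acot1 in the same gene cluster, were under the base mean minimum, at 0.73 ± 0.25 and 0.68 ± 0.26 (edgeR adjusted p = 0.0927 and 0.14). Of 16 genes of lipid droplets and lipolysis 3 were higher and 3 lower at an unadjusted p under 0.05, where 21.6% of all genes passed. Mgll, monoacylglycerol lipase, came nearest to a call at 0.43 ± 0.09 (edgeR adjusted p = 0.0114), Dgat2 had −0.52 ± 0.16 (edgeR adjusted p = 0.0721), and Cidec had −2.59 ± 0.97 with its high values in LP 13 and LP 20. Among 9 of 10 genes of lipoprotein lipase handling that were listed, Cd36 was called, as above, Gpihbp1, which anchors the lipase to capillaries, had 0.31 ± 0.10 (edgeR adjusted p = 0.074), and Lpl itself had an edgeR adjusted p of 0.993.

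Markers of other cells moved with fat beside these genes. Of 8 white adipocyte markers 6 were over the base mean minimum, and 5 of these were lower for fat and for HF+LP compared with LP at an unadjusted p under 0.05 (21.6% and 15.7% of all genes passed in either direction), Adipoq being at 1208 in LP 13 and 481 in LP 20. Of 8 cardiomyocyte markers 1 was called lower for fat, Myh6, at −0.55 ± 0.09 (edgeR adjusted p = 0.00252). Of 4 smooth muscle markers 2 were over the minimum, and 1 of these was called lower, Myh11, at −1.54 ± 0.23 (edgeR adjusted p = 0.000572). Of 5 brown adipocyte markers 3 were over the minimum, and 0 had an unadjusted p under 0.05 for fat. Of 7 macrophage markers 4 were higher for HF compared with NP at an unadjusted p under 0.05, where 13.3% of all genes passed in either direction. Of the 4 atrial, 6 endothelial and 6 fibroblast markers 0, 1 and 0 had an unadjusted p under 0.05 for fat, the 2 liver markers listed summed to at most 40.4 in any library, and 3 of 6 skeletal muscle markers were listed. The part of these cells in the values of Acot1, Plin5, Angptl4 and Pdk4 was not tested beyond the fits without the 6 libraries and with the atrial level as a covariate. The share of counts from mitochondrially encoded genes was 38.1% to 39.8% in HF, below the 41.3% to 47.1% of NP without overlap, and 35.4% to 44.5% in LP and 38.5% to 47.2% in HF+LP. With those genes left out Pdk4 had 2.25 for HF compared with NP (unadjusted p = 0.0241), and Angptl4 had 1.17 for HF+LP compared with HF (unadjusted p = 0.0533).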

How the data were processed

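The authors prepared QuantSeq 3′ mRNA libraries from left ventricle, used BlueBee software for alignment, and deposited whole-number counts per gene. GRCm38 and DESeq2 1.22.2 are named in the submitters' processing notes, while the counting program, its annotation and its use of strand were not given in the sources used here. Every listed gene had at least 60 counts over the 20 libraries. Groups came from the diet labels.

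Counts were analysed with edgeR 4.0.16 in R 4.3.3. TMM factors and filterByExpr left 13991 genes, and the quasi-likelihood test was fitted to all 4 groups in 1 model and p-values were adjusted over those genes by Benjamini-Hochberg. A call required an adjusted p under 0.01 and a base mean, the mean normalized count, over 50. Intervals are 95% intervals of the model. DESeq2 1.42.0, other filters and scalings, covariates, a block by animal number and the omission of each mouse were alternatives. The procedure was tested on simulated data with known changes.

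The 9 genes and the gene lists were chosen with earlier results of these data known. Of the lists 2 genes are not reported here and were left out of their counts. All 9 genes were described, and from each list the genes called in any comparison or, where none was, up to 3 with the smallest p for fat. For Pdk4, Ucp3, Acot1 and Angptl4 the 3 genes most alike by Pearson r of log2 CPM (prior count 2) were named. Ppara, Ppard, Pparg, Lpl, Gpihbp1, Adipoq and Ucp1, and Cidea and Mlycd beside Plin2 and Plin5, were named outside this rule, after their values were seen. Gene positions were those of GENCODE M21.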

Additional observations from a re-analysis of the deposited data

Results flagged for a closer look

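In 4 of the 36 sets of 5 mice (9 genes in 4 groups), 1 mouse stood farther from the rest than Dixon's 95% limit, a gap to the nearest mouse of 0.71 of the group's range. About 1 in 20 such sets would be picked out by chance. Ucp3 was 928 normalized counts in NP 4 and 418 in the next NP mouse. Angptl4 was 241 in NP 4, the same mouse, and 74.8 in the next. Plin2 was 1595 in LP 13 and 788 in the next LP mouse, and LP 13 held the most atrial and white adipocyte markers of all libraries. Ucp2 was 456 in HF+LP 3 and 267 in the next HF+LP mouse, and HF+LP 3 held the most atrial markers of its group. The part of other tissue in these values was not tested.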

How the results depend on the processing

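The number of the 9 genes called was 0 in every comparison fitted under each alternative (all 7, or 4 where only the 2 groups compared were fitted) except for fat over both protein levels, where it was 1 (Acot1) with DESeq2 and 1 (Acot1) with an edgeR adjusted p under 0.05 as the threshold. DESeq2 gave Acot1 0.74 on the log2 scale. With each mouse left out in turn it was 0 to 0. Over all genes DESeq2 called 163 against 37 by edgeR for HF compared with NP, 84 against 14 for HF+LP compared with LP and 398 against 140 for fat over both protein levels. The PPAR response element pattern was in 0 of 9 windows with at most 1 mismatch and in 5 of 9 with at most 3.

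Animal numbers belong to different mice and were not taken to pair the samples. Deviations from group means correlated at −0.55 to 0.48 in 16 same-numbered pairs, and 7 were over 0.1. Pairs with different numbers were not compared, so these correlations cannot show pairing or its absence. With the animal number as a replicate block 0 genes of the 9 were called and 16 of 63 values changed sign. NP 6, NP 8, LP 13, LP 15 and LP 20 share their numbers with no other mouse. In that fit each was matched by a term of its own and added nothing to the differences between groups, so that LP rested on LP 2 and LP 5. Under the block the interaction of Ucp2 turned from −1.31 to 0.41 (edgeR unadjusted p = 0.492, adjusted p = 1). Of the 24 other target genes edgeR called 0 for fat, and 7 were higher at an unadjusted p under 0.05. Any effect of the block beyond the loss of those mice was not tested. Of the 15 values with an unadjusted p under 0.05, no other changed sign under any alternative. With each mouse left out, 59 of 1260 values changed sign, none of them from those 15. The fits without the 6 atrial-rich libraries and with the atrial level as a covariate were chosen after seeing the data.

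With 5 mice a group, the intervals of Pdk4 and Angptl4 are too wide to show changes of moderate size. Replicates are single mice, and the libraries differed in their levels of atrial and adipocyte markers.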
